A study of Mus musculus with 10 samples.

Results

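The genes described here are 10 guidance ligands and receptors of lung endothelium: the semaphorins Sema3c, Sema3f, Sema3g, Sema6a and Sema7a, the plexins Plxna2, Plxnb2 and Plxnd1, the netrin receptor Unc5b and the roundabout receptor Robo4. They were chosen by symbol, through the gene identifiers of the count table, and are 10 of its 55385 genes. All 10 passed the filter on low counts. None of them passed the test between the groups, adjusted over all genes, and the largest difference, in Plxnd1, was 1.24-fold.

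RNA was sequenced from sorted lung endothelial cells of mice whose Tnfsf10 gene, which encodes the death ligand TRAIL, is flanked by loxP sites on both alleles (Tnfsf10 L/L). The control group did not carry the Cre transgene (Cdh5.Cre W/W, n = 5 libraries), while that of the EC-TRAIL KO label, written Tg/W from here on, did (Cdh5.Cre Tg/W, n = 5 libraries). The transgene is an inducible Cre recombinase driven by the promoter of the endothelial cadherin gene Cdh5, so that deletion is aimed at endothelium and not at other cells. The treatment protocol states that mice were 8 to 14 weeks old and were given tamoxifen by injection into the abdomen at 1 mg per mouse and day, over 5 or 10 days, with no statement of which library had which course. All sample titles share the tag T10, which the labels do not explain. Every library labelled Tg/W carried the transgene and no control did, so the transgene and the deletion cannot be told apart. Whether the 5 libraries of a group are from 5 mice is not stated in the labels, so a p-value here covers only the spread among the libraries, which may be technical. The series' design text speaks of 4 Tg/W animals where the labels list 5, and all 5 libraries were used.

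Semaphorins are secreted or membrane-bound ligands that steer growing axons and blood vessels. Plexins are their signalling receptors, and the secreted class 3 ligands mostly need a neuropilin as a co-receptor. Plexins act on small GTPases and on the cytoskeleton and thereby loosen the hold of a cell on its matrix. Unc5b, a receptor of netrins and FLRT proteins, and Robo4, a Robo family member largely restricted to endothelium, are known for limiting vessel sprouting and for keeping the endothelial barrier closed, and Robo4 is a reported binding partner of Unc5b.

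Library totals were 34435835 to 56897822 expected counts for controls against 29806083 to 34702571 for the libraries labelled Tg/W, and no member had fewer than 1829 counts in any library. Levels are given as CPM, counts per 1000000 counts of the scaled library. The 9 pan-endothelial markers, Pecam1 and Cdh5 among them, summed to between 10606 and 12243 CPM in controls and between 10528 and 12348 CPM in the other group. This sum was highest in the library labelled Tg/W replicate 2 and, within each group, lowest in replicate 5. Plxnd1, Unc5b and Robo4 were highest and, within each group, lowest in the same libraries. Plxnb2 was also highest there but lowest in control 3, which had the highest sum of the controls. The part of this sum in their levels was not tested. Markers of other cells were present: the alveolar epithelial list summed to between 6627 and 12030 CPM over the 10 libraries, fibroblast markers to between 471 and 783 CPM, and pericyte and smooth muscle markers to between 251 and 438 CPM. Leukocyte and platelet markers summed to between 1045 and 1873 CPM, with Marco, S100a8, Cd3e and Nkg7 below the filter. Most of that sum was Lyz2, which averaged 1404 CPM in controls and 1267 CPM in the other group. Ptprc averaged 3.32 and 3.24 CPM. The targeted gene Tnfsf10 averaged 334 ± 35.7 CPM among controls and 179 ± 89.7 among the libraries labelled Tg/W (SD, n = 5 each). It did not pass the edgeR test (log2 difference -0.90, SE 0.276, adjusted p = 0.425), and the exact permutation of this gene alone gave p = 0.0238. Among the libraries labelled Tg/W, 4 lay below every control, and replicate 2, at 318 CPM, lay within the control range. That library also had the highest summed level of the proliferation markers, 822 CPM, where controls had 46.7 to 101 CPM and the other libraries of its group 154 to 439 CPM. Without it Tnfsf10 passed the edgeR test (log2 difference -1.21, SE 0.212, adjusted p = 0.0345). As it had the highest Tnfsf10 level of its group, leaving it out enlarges this difference by construction. No other library left out alone gave a pass (edgeR adjusted p of at least 0.328). Where leaving out Tg/W replicate 2 moves the difference of a member by over 1.5 times, both values are given.

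Per kilobase of exon, 4 of the 5 semaphorins were the most abundant of the guidance genes. Among 47 tested semaphorins, plexins, neuropilins, Slits, Robos, netrins and Unc5 receptors, the first 4 places in controls were held by Sema3c, Sema3g, Sema3f and Sema7a. Sema3c had 206 ± 32.5 CPM per kilobase and Sema3g 173 ± 22.4, and the ranges of these neighbours overlapped (159 to 233 and 152 to 210.2). Sema3f followed at 126 ± 7.35 CPM per kilobase, below every control value of Sema3g, and overlapped with Sema7a at 116 ± 23.4 (SD, n = 5 controls each). All control values of Sema7a were above those of the next member, Robo4, at 56.6 ± 2.83 CPM per kilobase. Robo4, Sema6a (51.6 ± 3.72) and Plxnd1 (48.1 ± 12.1) overlapped and held places 8 to 10 (SD, n = 5). The plexin with the highest mean was Plxna1, which is not a member, at 71.4 ± 11.9 CPM per kilobase in place 6 (SD, n = 5). Its range overlapped that of Plxnd1. Plxnb2 was lower, at 18.6 to 21.8 CPM per kilobase in place 14, and Unc5b (11.5 ± 1.75) and Plxna2 (11.4 ± 3.01) overlapped in places 17 and 18 (SD, n = 5). The length is that of all annotated exons of a gene merged, so a gene with long or rarely used exons, such as Plxna2 with 17174 exonic bases, is placed low.

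**Figure D1:**
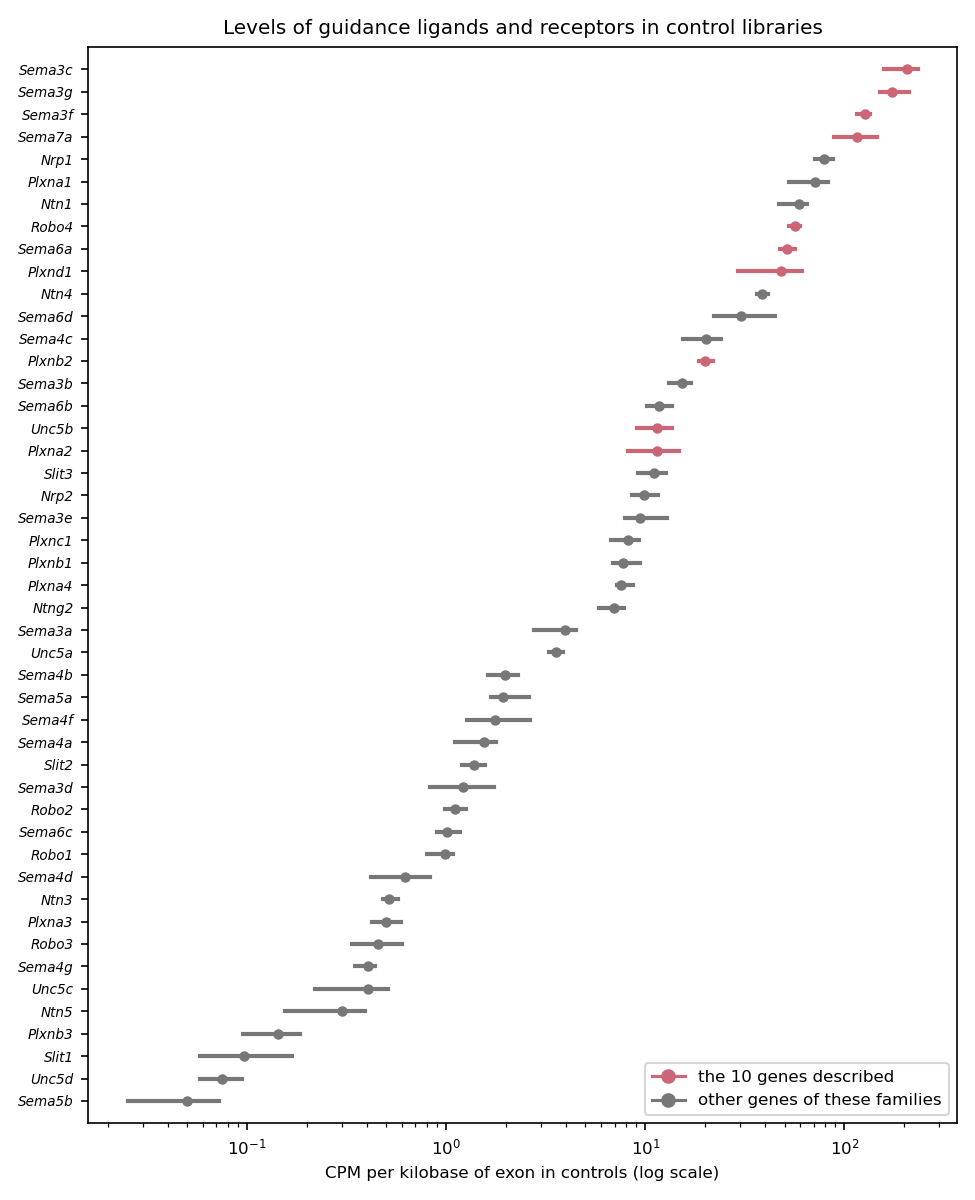
Mean level in the 5 control libraries (dots) and range over these libraries (lines) of 47 guidance ligands and receptors, in CPM per kilobase of exon on a log scale, with the 10 genes described in red. Sema3c, Sema3g, Sema3f and Sema7a hold the first 4 places, and Unc5b and Plxna2 lie in places 17 and 18.

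The partners of these ligands and receptors were measured in the same libraries. Nrp1, the co-receptor of several class 3 semaphorins, had 79.1 ± 6.39 CPM per kilobase in controls and Nrp2, to which Sema3f and Sema3g bind, 9.87 ± 1.28 (SD, n = 5). Sema3e, a ligand that binds Plxnd1 directly, had 9.41 ± 2.02 CPM per kilobase. Plxnc1, the plexin that binds Sema7a, had 8.19 ± 1.002 CPM per kilobase, and Ntn1, a netrin bound by Unc5 receptors, 58.8 ± 7.65 (SD, n = 5). Plxna4, which like Plxna2 binds Sema6a, had 7.57 ± 0.602 CPM per kilobase (SD, n = 5). In bulk libraries a lower level from fewer cells of a type and one from less RNA per cell cannot be told apart.

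Of the 5 semaphorins, Sema3c, Sema3g and Sema6a had a difference between the groups of at most 0.08 in size on the log2 scale. Sema3c, a secreted ligand needed for the outflow vessels of the heart (chromosome 5, 17574281 to 17730268, plus strand, GRCm38), had 1331, 1134, 1620, 1661 and 1624 CPM in controls 1 to 5. In the libraries labelled Tg/W 1 to 5 it had 1438, 1719, 1416, 1468 and 1354 CPM. The second group lay inside the control range except for replicate 2, which was the highest of the 10. On the log2 scale the groups differed by 0.0048 (SE 0.114), with a 95% interval from 0.845-fold to 1.19-fold, and the sign turned in 6 of the 21 alternatives, among them without the library labelled Tg/W replicate 2 (-0.055).

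Sema3g, a secreted ligand made mainly by arterial endothelium (chromosome 14, 31217860 to 31230352, plus strand), had 746, 688, 954, 789 and 742 CPM in controls against 707, 702, 779, 658 and 871 CPM with the label Tg/W. Control 3 was the highest of all and the groups overlapped almost fully. Its log2 fold change was -0.077 (SE 0.103), with an interval from 0.811-fold to 1.11-fold. Without control replicate 3 it was 0.00087, so that library decided the sign. Leaving out control replicate 2 or the library labelled Tg/W replicate 5 gave -0.12 and -0.14, and leaving out Tg/W replicate 4 gave -0.036. The 8 arterial markers, Gja5, Sox17 and Dll4 among them, summed to between 1866 and 2518 CPM in controls and between 1800.2 and 2387 CPM in the other group, with none of them called.

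Sema6a, a transmembrane ligand that binds Plxna2 and Plxna4 (chromosome 18, 47235598 to 47368870, minus strand), had 493, 459.7, 473, 425 and 415 CPM in controls. The values were 489, 423, 450.4, 373 and 409.6 CPM with the label Tg/W, of which replicates 4 and 5 lay below every control. The log2 difference of the groups was -0.079 (SE 0.0836), with an interval from 0.835-fold to 1.07-fold. It was below 0 in all 21 alternatives, and the test was not passed in any. Single libraries moved it, to -0.033 without Tg/W replicate 4, -0.047 without control replicate 1 and -0.13 without Tg/W replicate 1.

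Sema3f and Sema7a had higher means in the libraries labelled Tg/W, within overlapping groups. Sema3f, a secreted ligand that repels endothelial and tumour cells through Nrp2 (chromosome 9, 107681500 to 107710475, minus strand), had 654, 599, 646, 677 and 701 CPM in controls against 787, 703, 666, 697 and 793 CPM with the label Tg/W. Of the latter, 3 lay above the highest control and 2 within the control range. Its log2 difference was 0.15 (SE 0.0748), with an interval from 0.994-fold to 1.25-fold. It did not pass the test (edgeR adjusted p = 0.997), while the exact two-sided permutation of this gene alone over all assignments of libraries to groups gave p = 0.0476, not corrected for the 10 genes so tested. Without the library labelled Tg/W replicate 2 the log2 fold change was 0.17.

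Sema7a, an anchored ligand that signals through integrins and through Plxnc1 (chromosome 9, 57940112 to 57962865, plus strand), had 322, 293, 478, 380.3 and 438 CPM in controls. The libraries labelled Tg/W had 342, 455, 464, 397 and 618 CPM. Only replicate 5 of that group lay above the control range, and the other 4 lay within it. On the log2 scale the groups differed by 0.25 (SE 0.166, edgeR adjusted p = 0.997), and the interval, from 0.927-fold to 1.53-fold, was among the widest of the members. Without the library labelled Tg/W replicate 5, the highest one, the difference was 0.12.

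**Figure D2:**
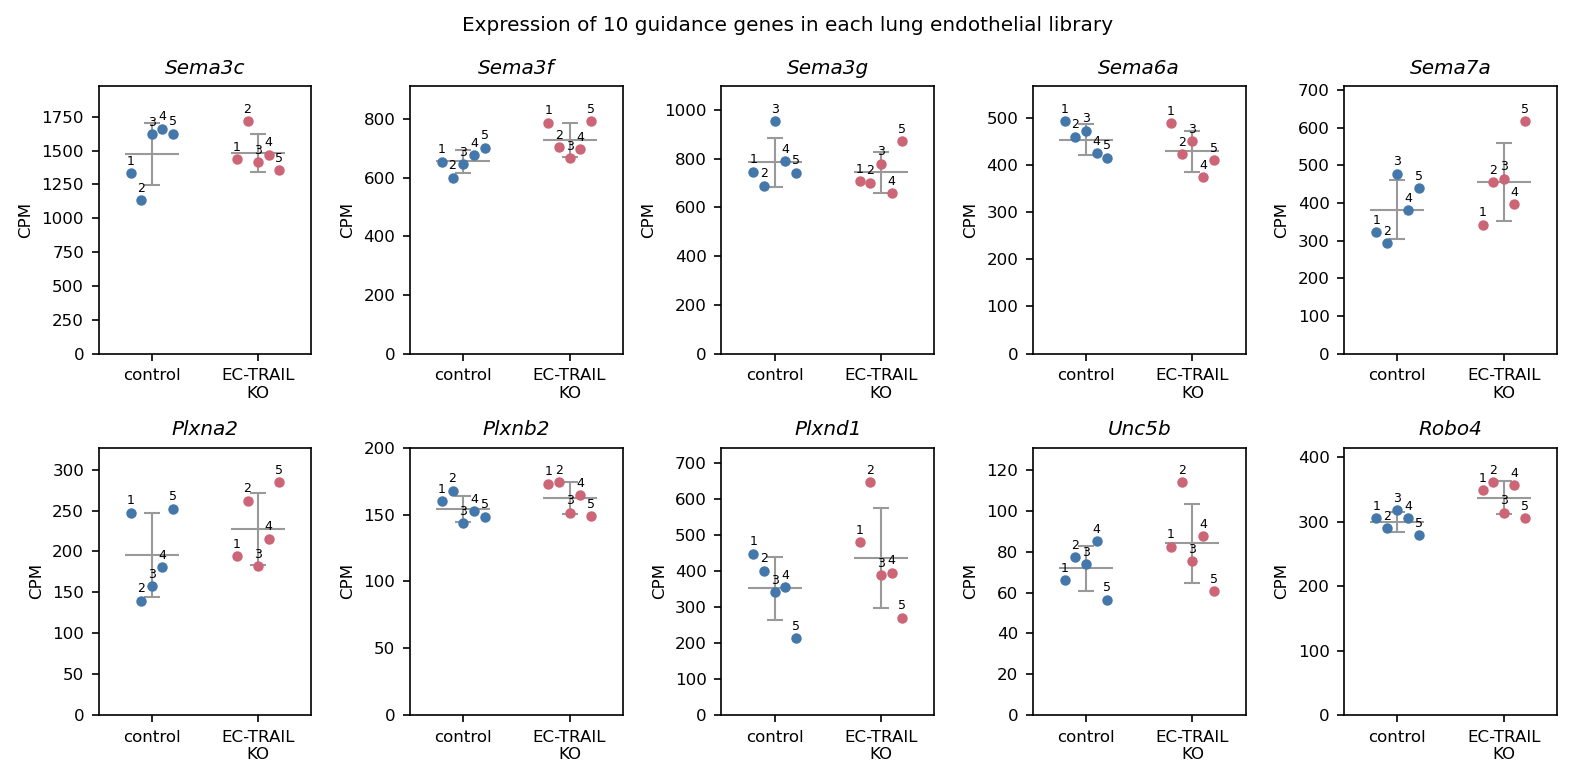
CPM of each of the 10 genes in the 5 control libraries (blue) and the 5 libraries labelled Tg/W (EC-TRAIL KO, red), numbered by replicate, with the mean and SD of each group in grey and axes that start at 0. The groups overlap in all 10 panels, and replicate 2 of the red group is the highest library for Sema3c, Plxnb2, Plxnd1, Unc5b and Robo4.

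The 5 receptors had log2 fold changes above 0, from 0.07 in Plxnb2 to 0.31 in Plxnd1, with a median of 0.22. Over all tested genes the median was -0.0085, and 47.4% were above 0. None of the 5 passed the test. The median of the 5 was 0.12 without the library labelled Tg/W replicate 2, with all 5 above 0, and 0.055 without replicates 1 and 2 of that group, with 4 above 0. The direction was not shared by their families. With all 10 libraries the 9 tested plexins, members included, had a median of -0.079 with 4 above 0. The 7 tested Slits and Robos, Robo4 included, had a median of -0.092 with 2 above 0. Plxnd1 is a plexin of endothelium, a receptor of Sema3e and of class 3 ligands bound to neuropilins (chromosome 6, 115954811 to 115995005, minus strand). It had 448, 400.1, 341, 355 and 213 CPM in controls against 479.6, 645, 389, 395 and 270.2 CPM with the label Tg/W. Replicates 1 and 2 of the latter lay above every control, and replicate 5 lay in the lower part of the control range. The log2 difference of the groups was 0.31 (SE 0.225; edgeR adjusted p = 0.997), with an interval from 0.882-fold to 1.74-fold. Without the library labelled Tg/W replicate 2 it was 0.12, without control replicate 5 it was 0.17, and without replicates 1 and 2 of the Tg/W label, an alternative chosen after seeing the data, it was -0.00070. Those replicates 1 and 2 also had the lowest sums of fibroblast markers (491 and 471 CPM) and of pericyte and smooth muscle markers (271 and 251 CPM) of the 10 libraries. Replicate 2 also had the lowest alveolar epithelial and leukocyte and platelet sums (6627 and 1045 CPM), the latter being mostly Lyz2 as given above. Replicate 1 did not (8996 and 1538 CPM), and control 2 had the highest of both sums (12030 and 1873 CPM). Neither Tg/W replicate 1 nor replicate 2 was lowest for airway epithelial or mesothelial markers. Among the endothelial lists, Tg/W replicate 2 had the highest pan-endothelial and aerocyte capillary sums (12348 and 2499 CPM) of the 10 libraries. It also had the lowest general capillary and venous sums (8552 and 2754 CPM). The part of these sums in the level of Plxnd1 was not tested. With the mean marker level of other cells, epithelial and leukocyte ones included, as a covariate Plxnd1 was at 0.21.

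Unc5b (chromosome 10, 60762593 to 60831581, minus strand) had its highest and lowest value in the same libraries as Plxnd1, at a lower level. Controls had 66.2, 77.3, 74.0, 85.2 and 56.5 CPM, and the libraries labelled Tg/W had 82.5, 114, 75.4, 87.7 and 60.7 CPM. As for Plxnd1, replicate 2 of the second group was the highest of the 10 libraries and control 5 the lowest. Its log2 difference was 0.23 (SE 0.153; edgeR adjusted p = 0.997), and 0.09 without the library labelled Tg/W replicate 2 and 0.055 without replicates 1 and 2. Its interval ran from 0.929-fold to 1.47-fold.

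Robo4 (chromosome 9, 37401897 to 37415115, plus strand) varied least among the members and had the smallest edgeR p, while Sema3f had the smallest exact permutation p. It had 306, 291, 318, 306 and 279 CPM in controls against 349, 361, 314, 357 and 305 CPM with the label Tg/W. Replicates 1, 2 and 4 of the latter lay above every control, and replicates 3 and 5 within the control range. On the log2 scale the groups differed by 0.17 (SE 0.0704), with an interval from 1.01-fold to 1.25-fold. It did not pass (edgeR adjusted p = 0.868, with 0.465 as the lowest of the alternatives; unadjusted edgeR p = 0.0322), and the exact two-sided permutation of this gene alone gave p = 0.0556. Leaving out replicate 2 of the Tg/W label gave 0.14, and the value was above 0 in all 21 alternatives. The unadjusted p was under 0.05 in 14 of these. It was not without control replicate 2 or 5, nor without Tg/W replicate 1, 2 or 4, or 1 and 2 together. The same held with no low-count filter.

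Plxnb2, a plexin of many tissues that binds class 4 semaphorins (chromosome 15, 89155549 to 89180788, minus strand), had 159.9, 168, 143, 152 and 148 CPM in controls against 173, 174, 151, 164 and 149 CPM with the label Tg/W. Replicates 1 and 2 of the second group were the highest of the 10, and the other 3 lay within the control range. The log2 difference of the groups was 0.07 (SE 0.0699), with an interval from 0.947-fold to 1.17-fold. It was 0.047 without the library labelled Tg/W replicate 2 and 0.045 without control replicate 3. Plxna2, a receptor of Sema6a and, with neuropilins, of class 3 ligands (chromosome 1, 194618218 to 194816869, plus strand), had 248, 139.9, 158, 181 and 252.3 CPM in controls. It had 194, 262, 182, 216 and 284 CPM with the label Tg/W. Replicates 2 and 5 of the second group lay above every control, and the other 3 lay within the control range. Its log2 difference was 0.22 (SE 0.178; edgeR adjusted p = 0.997), with an interval from 0.890-fold to 1.52-fold. It was 0.12 without control replicate 2 and 0.13 without the library labelled Tg/W replicate 5.

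**Figure D3:**
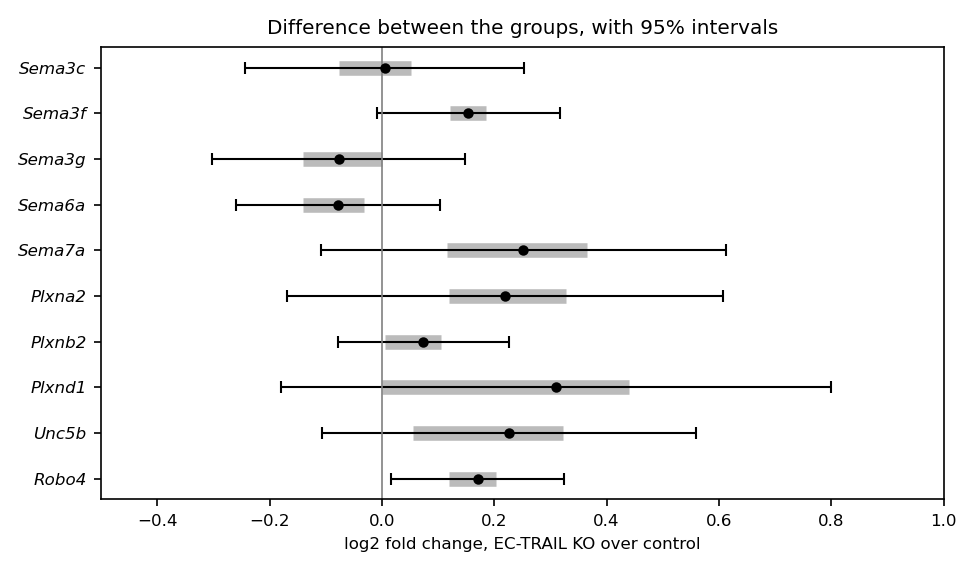
Log2 fold change of each gene, libraries labelled Tg/W (EC-TRAIL KO) over controls (n = 5 each), with its 95% interval (black) and the range over the 21 alternatives (grey bars). All intervals but that of Robo4 include 0, and the highest bound is that of Plxnd1, at 0.80.

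In all, 0 of the 10 members passed edgeR's quasi-likelihood test at an adjusted p under 0.05, where 0.439% of the 17997 tested genes passed, all 79 of them higher in the libraries labelled Tg/W. DESeq2 and limma-voom also called 0 members. At an unadjusted p under 0.05 edgeR had 1 of 10 members, Robo4, against 5.13% of all tested genes. That count was 0 without the library labelled Tg/W replicate 1, 2 or 4 and without control replicate 2, each left out alone, and 2 without Tg/W replicate 3 or 5. It was 1 without control replicate 5, there Sema3f and not Robo4, and 0 with no low-count filter. A total of 8 members had a log2 fold change above 0 and 2 below, with a median of 0.16, where 47.4% of all tested genes were above 0. In no member did all libraries of one group lie above all of the other, which held for 1.38% of tested genes with the libraries labelled Tg/W higher and for 0.261% with them lower. Over the 10 genes the lowest bound of any interval was 0.811-fold, in Sema3g, and the highest 1.74-fold, in Plxnd1.

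The members differed in how much they varied inside a group. The within-group SD of log2 CPM was 0.44 in Plxnd1, above 98.1% of the 4209 genes with a mean of at least 50 CPM. Plxna2 (0.33), Sema7a (0.31) and Unc5b (0.28) were above 94.3%, 92.6% and 90.6% of these genes. Robo4 (0.09), Plxnb2 (0.10) and Sema3f (0.10) were above 23.0%, 25.6% and 27.4%. The member with the largest fold change, Plxnd1, was also the most variable one, and its log2 difference of 0.31 was smaller than that SD. This SD takes no account of the replicate number. With the number as a block, described at the end, Plxnd1 was at 0.29 (SE 0.0888, edgeR adjusted p = 0.301).

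Plxnb2, Plxnd1, Unc5b and Robo4 varied together over the 10 libraries. They were picked by these same values, and no comparison with pairs of other genes is given. Plxnd1 and Unc5b had a Pearson r of 0.84 (Spearman rho 0.66), Unc5b and Robo4 0.78 (rho 0.71), Plxnb2 and Plxnd1 0.78 (rho 0.92) and Plxnd1 and Robo4 0.73 (rho 0.62). For Plxnb2 with Unc5b r was 0.66 (rho 0.75) and for Plxnb2 with Robo4 0.59 (rho 0.49). Among all 45 pairs of members, Sema3f with Plxna2 (r = 0.63, rho 0.77) and Sema3g with Sema7a (r = 0.61, rho 0.58) lay between the lowest 2 of these values. All are descriptions over 10 libraries that share the 2 groups and their scaling, and no p is given. With the group means taken away the 6 values among the 4 receptors were 0.49 to 0.82, and without the library labelled Tg/W replicate 2 they were 0.45 to 0.73. Without the 2 libraries farthest from the median of the first gene of each pair these 6 fell to between 0.21 and 0.60, so they rest in part on those libraries. Within the controls alone, over 5 libraries, Plxnb2 had r = 0.58 with Plxnd1, 0.215 with Unc5b and -0.29 with Robo4. The pairs without Plxnb2 had 0.57 to 0.61 there. Within the 5 libraries labelled Tg/W the 6 values were higher, at 0.81 to 0.95.

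Sema3g and Plxnb2 varied in opposite directions, with r = -0.81 (rho -0.76), and -0.73 without the 2 libraries farthest from the median of Sema3g. Control 3 had the highest Sema3g and the lowest Plxnb2 of the 10 libraries. Sema7a and Plxnb2 had r = -0.56 (rho -0.58), and -0.435 without the 2 libraries farthest from the median of Sema7a. With the group means taken away r was -0.85 for Sema7a with Plxnb2 and -0.80 for Sema3g with Plxnb2.

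**Figure D4:**
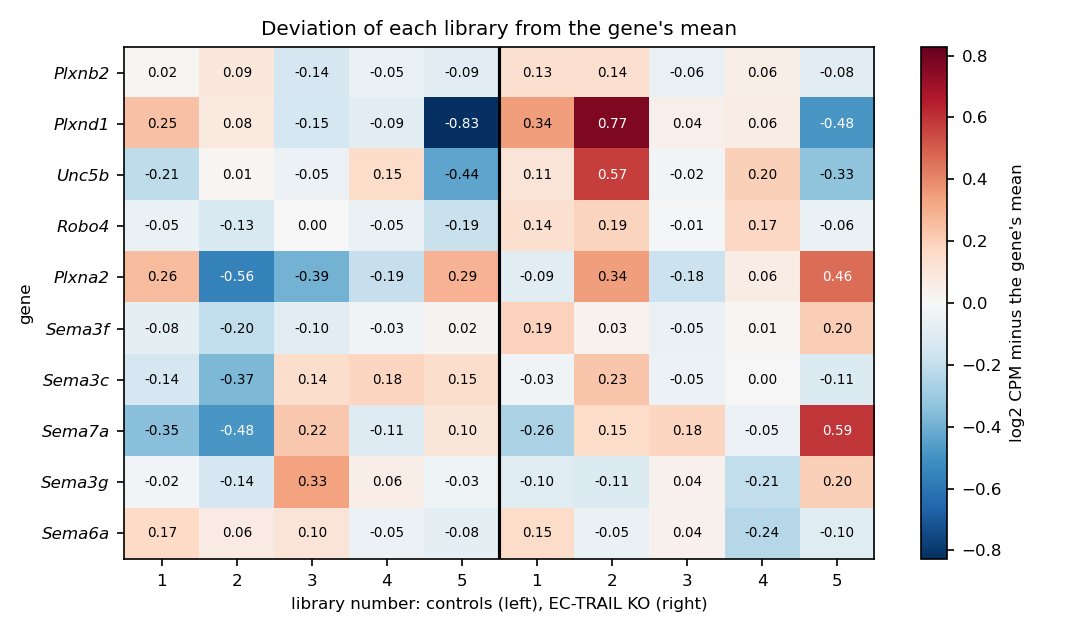
Log2 CPM of each gene in each library minus the gene's mean over the 10 libraries, with controls 1 to 5 on the left and libraries labelled Tg/W (EC-TRAIL KO) 1 to 5 on the right of the black line. Plxnd1 and Unc5b are lowest in control 5 (-0.83 and -0.44) and highest in the library labelled Tg/W replicate 2 (0.77 and 0.57).

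The starts of these 4 receptor genes are shown because their levels varied together. Each is the sequence before the start site in the RefSeq promoter table for GRCm38.p6, 250 bases long except for Robo4. For Plxnb2 a further entry, which does not start at the gene's annotated 5′ end, is not shown. It is not part of the Plxnb2 motif counts. The 75 bases next to the Robo4 start site lie in an annotated exon and were cut off, which left the 175 bases farther from it. The table had an entry for 8 of the 10 members, all but Sema3f and Sema6a. The windows are chr15:89180789-89181038 (Plxnb2, minus strand), chr6:115995006-115995255 (Plxnd1, minus strand), chr10:60831582-60831831 (Unc5b, minus strand) and chr9:37401722-37401896 (Robo4, plus strand), and no annotated exon lies in them. They are written 5′ to 3′ on the strand of the gene. Capitals mark the GC box GGGCGG, bound by Sp and Krüppel-like factors, and the core GGAA bound by ETS factors, each searched on both strands.
Plxnb2: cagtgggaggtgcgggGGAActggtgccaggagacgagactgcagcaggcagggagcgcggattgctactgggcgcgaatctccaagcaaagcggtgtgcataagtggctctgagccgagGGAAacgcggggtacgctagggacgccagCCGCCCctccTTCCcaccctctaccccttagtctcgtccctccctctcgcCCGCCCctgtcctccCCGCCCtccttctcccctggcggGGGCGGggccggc
Plxnd1: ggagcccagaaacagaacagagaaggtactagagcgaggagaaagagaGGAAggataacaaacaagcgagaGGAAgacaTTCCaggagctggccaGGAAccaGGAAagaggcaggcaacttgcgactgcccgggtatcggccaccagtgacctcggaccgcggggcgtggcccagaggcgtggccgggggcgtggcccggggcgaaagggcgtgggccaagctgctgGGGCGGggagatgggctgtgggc
Unc5b: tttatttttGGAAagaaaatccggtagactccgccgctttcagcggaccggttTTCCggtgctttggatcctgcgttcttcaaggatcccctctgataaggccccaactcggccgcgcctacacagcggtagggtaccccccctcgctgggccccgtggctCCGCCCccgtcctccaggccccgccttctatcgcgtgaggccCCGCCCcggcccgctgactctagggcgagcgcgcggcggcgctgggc
Robo4: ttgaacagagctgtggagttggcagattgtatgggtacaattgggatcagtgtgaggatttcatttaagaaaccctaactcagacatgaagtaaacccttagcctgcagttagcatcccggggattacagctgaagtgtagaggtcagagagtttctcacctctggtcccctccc
Plxnb2 had 4 GC boxes and 3 ETS cores, Plxnd1 1 and 5, and Unc5b 2 and 2, with no base shared between the motifs. Of the 32851 windows of 250 bases in the table, 32.7% held a GC box and 93.4% an ETS core. The Robo4 window held neither, where 20.2% and 85.9% of windows of its length did. The 75 bases between that window and the Robo4 start site were not searched. The GC content was 69.2%, 64.8% and 66.8% in Plxnb2, Plxnd1 and Unc5b, with a median of 52.4% over all windows, and 47.4% in Robo4, with a median of 51.4% at its length. These matches describe the letters and no binding was measured.

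The gene most like each member was found among 11273 other genes with a mean of at least 5 CPM, by Pearson r of log2 CPM over the 10 libraries. For Plxnd1 it was Scarf1, a scavenger receptor of endothelial cells, with r = 0.99 (rho 0.96). Robo4 was followed best by Nup62, a nuclear pore protein (r = 0.96, rho 0.88), Unc5b by Stox2 (r = 0.96, rho 0.95) and Plxnb2 by Cyfip2, a component of the WAVE actin regulatory complex (r = 0.94, rho 0.94). Plxna2 was most like Anxa3, an annexin (r = 0.94, rho 0.95). Among the ligands, Sema3c was closest to the ubiquitin ligase gene Trip12 (r = 0.93, rho 0.88), Sema3f to Tmem189 (r = 0.95, rho 0.89), Sema3g to Ssh2, a cofilin phosphatase (r = 0.93, rho 0.93), Sema6a to Gm16536 (r = 0.97, rho 0.96) and Sema7a to Tmc7 (r = 0.96, rho 0.92). Each is the best of 11273 comparisons over 10 libraries. None of these 10 genes passed the test between the groups (edgeR adjusted p of at least 0.404).

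The wider list of 80 semaphorins, plexins, neuropilins, Slits, Robos, netrins, Unc5 receptors, their partners and intracellular effectors had 77 tested genes. Of these 0 passed the edgeR test in either direction, 38 had a log2 fold change above 0 and 39 below, and the median was -0.0025. Ntng1, Dcc, the netrin receptor of neurons, and Dscam were not tested and had at most 2 counts in any library. At an unadjusted p under 0.05 edgeR had 4 higher and 2 lower, against 3.81% and 1.32% of all tested genes. DESeq2 called 1 gene of the list, Crmp1, and limma-voom 0.

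The genes of each family with the smallest p in each direction were as follows, none passing with edgeR. Sema3d (log2 fold change 0.50, SE 0.223) and Sema3a (-0.29, SE 0.168) were those of class 3, and Sema4c, a ligand of Plxnb2 (0.28, SE 0.174), and Sema4a (-0.12, SE 0.129) those of class 4. Among the plexins these were Plxnd1, given above, and Plxnc1, with 56.3, 65.8, 77.9, 74.5 and 67.2 CPM in controls against 59.6, 49.4, 57.5, 65.7 and 59.9 CPM with the label Tg/W (log2 fold change -0.23, SE 0.0968; edgeR adjusted p = 0.905). Nrp2 was at 0.25 (SE 0.147) and Nrp1 at -0.11 (SE 0.0907). Like Plxnd1 and Unc5b, Nrp2 was highest in the library labelled Tg/W replicate 2, at 190.4 CPM, against 102 to 146 CPM in the other 9, and its log2 fold change without that library was 0.11. Sema3d, also highest there at 21.3 CPM, was at 0.33 without it. Among netrins, Unc5 receptors and partners, Unc5a was at 0.13 (SE 0.0803) and Ntn4, a netrin of basement membranes, at -0.17 (SE 0.0958). In the remaining families these genes were Sema7a and Sema6a (classes 5 to 7) and Robo4 and Robo1 (Slits and Robos). Log2 fold changes above 0 were found in 4 of 7 class 3 semaphorins, 2 of 6 of class 4, 4 of 7 of classes 5 to 7, 4 of 9 plexins, 2 of 7 Slits and Robos, 5 of 15 netrins, Unc5 receptors and partners, and 16 of 24 effectors.

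Crmp1, one of the collapsin response mediator proteins that carry the semaphorin signal to the cytoskeleton, had 0.990, 1.07, 0.812, 1.47 and 1.33 CPM in controls. The libraries labelled Tg/W had 2.07, 3.95, 2.07, 2.43 and 1.53 CPM, all above all controls. It was the 1 gene of the list with groups that did not overlap, as 1.38% of all tested genes did in this direction. On the log2 scale the groups differed by 1.09 (SE 0.264), which did not pass with edgeR (adjusted p = 0.161) and passed with DESeq2 (adjusted p = 0.00864), and the 21 alternatives reached from 0.00864 to 0.55. Its highest value was in the library labelled Tg/W replicate 2, and without that library the log2 fold change was 0.84 (edgeR adjusted p = 0.33). Summed proliferation markers were also higher in every library labelled Tg/W (154 to 822 CPM) than in every control (46.7 to 101 CPM), with 6 of 8 markers called, and their part in the level of Crmp1 was not tested. The number of these markers called was 0 with limma-voom, with library size only, with the covariate for other cells and without any 1 control or Tg/W replicate 3 or 4, and 8 with DESeq2. Farp2, an exchange factor bound by plexins, was the effector with the smallest p among the lower ones (log2 fold change -0.22, SE 0.0951; edgeR adjusted p = 0.936).

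Robo1, a Slit receptor, had 13.2, 17.2, 17.9, 16.8 and 16.7 CPM in controls against 8.93, 7.83, 15.4, 16.0 and 17.3 CPM with the label Tg/W. Replicates 1 and 2 of the latter were the lowest of the 10, and the other 3 lay within the control range. Its log2 fold change was -0.32 (SE 0.204; edgeR adjusted p = 0.997), and -0.18 without replicate 2 and -0.21 without replicate 1 of the Tg/W label. Sema3a had 38.1, 62.3, 54.5, 59.6 and 60.7 CPM in controls against 38.7, 32.8, 53.4, 58.4 and 41.7 CPM with the label Tg/W, with the lowest value in replicate 2. In the same replicates 1 and 2 the 8 fibroblast markers summed to 491 and 471 CPM, against 552 to 783 CPM in the other 8 libraries, and the 7 pericyte and smooth muscle markers to 271 and 251 CPM, against 322 to 438 CPM. No other marker list had its lowest sums in both of these replicates. Those of alveolar epithelium, leukocytes and platelets, general capillaries and veins were among the lists lowest in replicate 2, as given with Plxnd1. With the mean marker level of other cells, epithelial and leukocyte ones included, as a covariate, Robo1 was at -0.30 and Sema3a, at -0.29 without it, at -0.23.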

How the data were processed

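RNA was measured in 10 libraries. Per the submitters' processing notes, STAR 2.7.1a, RSEM 1.2.28 and the build GRCm38 were used, and per the labels' protocols the libraries were made from poly-adenylated RNA with a stranded kit. The authors deposited expected counts per gene, with no scaling, and 81.2% of the values are whole numbers. Which annotation release was used, and whether counting used strand, is not given in the sources used here. Symbols, positions and exon lengths came from GENCODE M21, where 55144 identifiers matched and 241 did not. Expected counts were rounded and analysed with edgeR 4.0.16 in R 4.3.3: filterByExpr (minimum count 10, leaving 17997 genes), TMM scaling, and the quasi-likelihood F-test of group with Benjamini-Hochberg adjustment over all genes tested. A standard error is the size of the log2 fold change divided by the square root of F, and intervals use the test's degrees of freedom. CPM used TMM library sizes, and log2 CPM a prior count of 2. Groups came from the labels. The alternatives included limma 3.58.1 (voom), DESeq2 1.42.0, other scalings and filters, and leaving out libraries. The test was tried on simulated data.

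The members and lists were chosen with earlier results of these data known. Genes named are the 10 members, Tnfsf10, the gene of each family of the wider list with the smallest p in each direction or passing, and the gene most like each member. Partners and relatives named for their level, marker genes and the replicates singled out were chosen after their values were seen. Depth per library is given with the results.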

Additional observations from a re-analysis of the deposited data

Results flagged for a closer look

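Among 44 sets of 5 libraries examined (the 10 members and the named genes of the wider list, in each group), 2 had 1 library set far apart from the others, where chance gives about 1 in 20. Both were in control replicate 1. Robo1 was at 13.2 CPM there, with a gap to the nearest control of 0.773 of the whole range of log2 CPM. Sema3a was at 38.1 CPM there, with a gap of 0.726 of the range. No member was set apart in this way.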

How the results depend on the processing

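In 21 alternatives 0 of the 10 members passed, and Sema3f, Sema6a, Sema7a, Plxna2, Plxnb2, Unc5b and Robo4 kept their direction. Sema3c (0.0048) turned to -0.0082 with no low-count filter, -0.0096 with other cells' mean marker level as a covariate and -0.062 without Tg/W replicates 1 and 2, an alternative chosen after seeing the data that also turned Plxnd1 (-0.00070). Leaving out 1 library gave -0.077 to 0.051 for Sema3c and -0.14 to 0.00087 for Sema3g. The number of genes called, 79, became 2 with library size only, limma-voom, limma-voom with quality weights and the covariate, 143 with no filter, 212 with DESeq2, 125 without Tg/W replicates 1 and 2, and 2 to 155 without 1 library. It was 2 without any 1 control or Tg/W replicate 4, 3 without Tg/W replicate 3 and 155 without Tg/W replicate 1. The cause was not tested. The wider list had 0 calls except for 1 with DESeq2 (Crmp1). With the replicate number as a block 149 genes were called and 0 members, of which 5 had an unadjusted edgeR p under 0.05, as did 8.78% of all tested genes. Plxnd1 was at 0.29 there (SE 0.0888; edgeR adjusted p = 0.301). Deviations of same-numbered libraries from their group means had correlations of 0.227, 0.0679, 0.21, 0.433 and 0.114 over all tested genes, and in 4 of 5 numbers each library was most like its own number. As 1 correlation was under 0.1, the numbers were not taken as pairs. For Sema3f, Plxnb2, Plxnd1 and Unc5b the library labelled Tg/W was above the control of the same number in every number. For Sema6a it was below in every number, and for the other members the direction was mixed. The legacy estimation listed as an alternative is the default of this edgeR version; the newer estimation, added later, called 79. The lowest count of any member in a library was 1829, in Unc5b.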
